A study of Mus musculus with 4 samples.

Results

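Dynein light chains were examined in lenses of mice lacking S100A4, a calcium-binding protein of lens fiber cells, and in lenses of their wild type (WT) littermates. The 10 genes were chosen by name around *Dynlt1b*, a light chain gene already known to be lower in *S100A4*-/- lenses: the Tctex-type light chains *Dynlt1a*, *Dynlt1b*, *Dynlt1c*, *Dynlt1f* and *Dynlt3*, the LC8-type light chains *Dynll1* and *Dynll2*, the roadblock light chain *Dynlrb1*, the heavy chain *Dync1h1* and the intermediate chain *Dync1i2*. Of these, 8 had a row in the table of 14924 genes and all 8 were tested, while *Dynlt1a* and *Dynlt1c* had no row, so that their expression was not analysed here. Because the choice used the difference of *Dynlt1b* between *S100A4*-/- and WT, the values of these genes in that contrast are given as a description; where calls among them are counted, the share of all genes called stands beside the count and nothing is read from it.

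The study compared 2 groups of 1-month-old mice on a C57BL/6J background, *S100A4*-/- animals of a null strain and their WT littermates, with no other allele or treatment named. Each group had 2 libraries of polyadenylated RNA, and each library came from a pool of 6 to 12 lenses, so that the spread between libraries is one between pools and not between animals. The sex of the animals in each pool is not given in the sources used here. The libraries held 81602367 and 74108017 reads on genes in *S100A4*-/- and 70253985 and 68038158 in WT. Values are read counts divided by a size factor for each library, called normalized values below, and 1 read was worth 0.8564 and 1.0135 units in the *S100A4*-/- libraries and 1.0442 and 1.0949 units in the WT libraries.

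*S100a4* itself matched the labels of the 4 libraries. It was at 14.6 and 18.2 in *S100A4*-/- and at 14419.8 and 14385 in WT, a log2 difference of -9.70 (SE 0.10, limma, Benjamini-Hochberg adjusted p = 6.42e-41). Markers of the lens fiber, the main cell of the lens, were abundant in all 4 libraries, and by limma, DESeq2 or edgeR 0 of 9 were called at 2-fold and an adjusted p not above 0.05, with 1 lower and 0 higher at an unadjusted p under 0.05 (limma). On the adjusted p alone 0 of the 9 passed with limma, 1 with DESeq2 and 1 with edgeR. Of all genes tested with limma, 3.65% were called higher and 0.0744% lower, and 11.0% and 6.71% had an unadjusted p under 0.05, so that few or no calls among so few markers say little by themselves. Of the 4 markers of the lens epithelium 0 were called by these tools, with 1 lower and 1 higher at an unadjusted p under 0.05. *Mip*, the water channel of the fiber membrane, was at 651160 and 650078 in *S100A4*-/- and at 711929 and 703652 in WT.

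Cytoplasmic dynein 1 is the motor that carries vesicles, organelles and proteins toward the minus ends of microtubules, which in lens fibers run along the length of the cell. Its heavy chain, encoded by *Dync1h1*, holds the motor domain and the microtubule-binding stalk. The intermediate chains *Dync1i1* and *Dync1i2* bind the heavy chain and act as the scaffold on which the light chains sit as dimers: the Tctex, LC8 and roadblock families each have their own binding place. Light chains also bind other proteins outside the motor, and LC8 in particular is known as a dimerization hub for many partners. *Dynlt1*, first described as a transcript of the mouse t complex on proximal chromosome 17, is present in the mouse genome as several near-identical genes, while its relative *Dynlt3* is a single gene on chromosome X.

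The near-identity of the *Dynlt1* copies decides how much of each copy can be measured. In the GENCODE M21 annotation of GRCm38, *Dynlt1b* (ENSMUSG00000096255) lies on the plus strand of chr17:6430112-6436296 and *Dynlt1f* (ENSMUSG00000095677) on the minus strand of chr17:6646602-6655900. The coding sequence of *Dynlt1b* differs from that of each of *Dynlt1a*, *Dynlt1c* and *Dynlt1f* by 1 base in 342, and the encoded proteins of 113 residues are identical. That base lies in the first coding exon, which is shown here for the 4 genes because it holds the only coding difference between them; it is position 21 counted from the first base of the start codon, printed as a capital, and *Dynlt1b* differs from each of the other copies by A21C. The sequences come from the GENCODE M21 transcripts and are written 5′ to 3′ on the strand of the gene.
Dynlt1a, chr17:6317374-6317400, minus strand: atggaagacttccaggcctcCgaggag
Dynlt1b, chr17:6430212-6430238, plus strand: atggaagacttccaggcctcAgaggag
Dynlt1c, chr17:6601810-6601836, plus strand: atggaagacttccaggcctcCgaggag
Dynlt1f, chr17:6655774-6655800, minus strand: atggaagacttccaggcctcCgaggag

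Only reads that mapped to a single place in the genome were counted by the authors, so the value of a near-identical gene rests on the part of its transcript that no other gene shares. All 50-base stretches of the spliced transcripts, the length of the study's reads, were compared with those of every annotated transcript. In *Dynlt1b*, 121 of 722 possible read starts (16.8%) belonged to this gene alone, all of them at starts 1 to 121. Together they cover bases 1 to 170 of the 771-base transcript Dynlt1b-201, which are exon 1 (chr17:6430112-6430238, the 5′ untranslated region and the first coding bases), exon 2 (chr17:6431880-6431921, coding) and the first base of exon 3. By this match, reads counted for *Dynlt1b* would come from the 5′ end of its transcript; where the counted reads lie was not analysed here. In the 771-base transcript Dynlt1f-201, 50 of 722 starts (6.9%) belonged to *Dynlt1f* alone, at starts 446 to 495 in the 3′ untranslated region. The annotated exons of *Dynlt1f* cover 3627 bases in all, and its other transcripts were not searched for starts of their own. The copies without a row also had such starts, 1056 of 3272 (32.3%) in Dynlt1a-201 and 159 of 2540 (6.3%) in Dynlt1c-201. Why they had no row was not tested.

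Between the transcripts Dynlt1b-201 and Dynlt1f-201 the substitutions, counted from the transcript start and written with the base of *Dynlt1b* first, were G44T, C45T, A49G and T91C in the 5′ untranslated region, A121C in the coding part, and C495T and C621A in the 3′ untranslated region. *Dynlt1b* shared 551 of its starts with *Dynlt1a*, 551 with *Dynlt1c*, 501 with *Dynlt1f* and 272 with *Dynlt1-ps1*, a processed pseudogene on chr6:135349408-135349749 whose sequence is identical to the coding sequence of *Dynlt1f*. *Dynlt1-ps1* had no start of its own among 293, yet reads were assigned to it, so this match of annotated transcripts does not describe the counting in full. In the same match, *Dynlt3*, *Dynll2*, *Dynlrb1* and *Dync1i2* had every start in 1 gene, and *Dynll1* (96.5%) and *Dync1h1* (97.5%) had nearly all. Matches elsewhere in the genome were not searched. *Dynlt3* shared 61.9% of aligned coding bases and 48.3% of residues with *Dynlt1b*. *Dynll1* and *Dynll2* differed at 51 of 270 coding bases and at 6 of 89 residues.

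**Figure D1:**
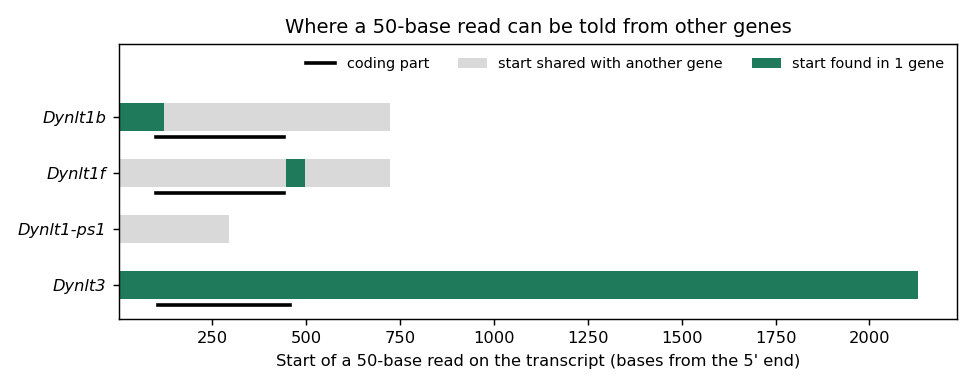
Possible start positions of a 50-base read along the transcripts of the *Dynlt1* rows and *Dynlt3*, in bases from the 5′ end; green marks starts found in 1 annotated gene, grey marks starts shared with another gene, and the black line marks the coding part. *Dynlt1b* is green over starts 1 to 121 and *Dynlt1f* over starts 446 to 495, *Dynlt1-ps1* is grey throughout, and *Dynlt3* is green throughout.

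*Dynlt1b* was lower in both *S100A4*-/- libraries than in either WT library. Its normalized values were 53.1 and 44.6 in *S100A4*-/- and 219 and 228 in WT, from 62, 44, 210 and 208 reads. The groups did not overlap, and the lowest and highest ratios of an *S100A4*-/- library to a WT library were 19.6% and 24.2%. The *S100A4*-/- mean was 48.8 ± 6.01 and the WT mean 224 ± 5.99 (SD, n = 2 each), a level of 21.9% of WT and a log2 difference of -2.18 (SE 0.20) on the log2(value + 1) scale. Of 14780 genes tested with limma, 11 (0.0744%) were lower in *S100A4*-/- by at least 2-fold with an adjusted p of at most 0.05, and 539 (3.65%) were higher. *Dynlt1b* was 1 of the 11, the sixth of them by size of log2 difference, and since it was chosen on this contrast nothing is read from its place there. It was the 1 gene of the 8 called lower by this rule.

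*Dynlt1f*, which encodes the same protein as *Dynlt1b*, was at 24.8 and 27.4 in *S100A4*-/- and at 23.0 and 27.4 in WT, from 29, 27, 22 and 25 reads. The groups overlapped, and the log2 difference was 0.05 (SE 0.40). *Dynlt1-ps1* was at 24.8 and 12.2 in *S100A4*-/- and at 47.0 and 32.8 in WT, from 29, 12, 45 and 30 reads. Both *S100A4*-/- libraries lay under both WT libraries, but the log2 difference of -1.13 (SE 0.41) did not pass (limma, Benjamini-Hochberg adjusted p = 0.101). Both rows rest on few reads.

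Summing the 3 *Dynlt1* rows depends less on which copy a read was given to, although reads that fit several places were still left out. The sum was 103 and 84.1 in *S100A4*-/- and 289 and 288 in WT, from 120, 83, 277 and 263 reads. The groups did not overlap, and the *S100A4*-/- mean of 93.4 ± 13.2 (SD, n = 2) was 32.4% of the WT mean of 289 ± 0.899 (SD, n = 2), a log2 ratio of -1.63. *Dynlt1b* made up 75.8% and 79.1% of the sum in the WT libraries and 51.7% and 53.0% in the *S100A4*-/- libraries. *Dynlt1f* made up 7.9% and 9.5% in WT and 24.2% and 32.5% in *S100A4*-/-. These are shares of the counted values and not of *Dynlt1* RNA. The rows differ in starts of their own (121 in Dynlt1b-201, 50 in Dynlt1f-201 and 0 in *Dynlt1-ps1*). *Dynlt1a* and *Dynlt1c* had no row. In these bulk samples, fewer cells that express a gene and less RNA per cell cannot be told apart, here and for every gene below.

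**Figure D2:**
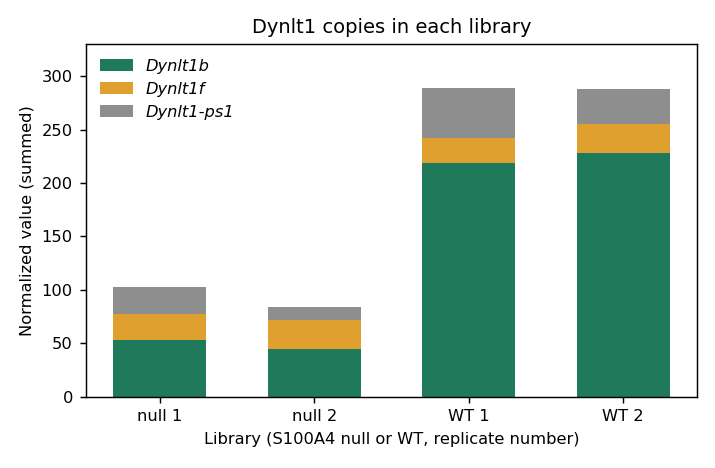
Stacked normalized values of *Dynlt1b*, *Dynlt1f* and *Dynlt1-ps1* in each of the 4 libraries (bars start at 0; 1 bar is 1 library, so no error is drawn). The WT bars reach 289 and 288 and the *S100A4*-/- bars 103 and 84.1; the *Dynlt1f* segment stays between 23.0 and 27.4 in all 4.

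*Dynlt3*, the other Tctex-type light chain (chrX:9654267-9663003), was at 2613 and 2473 in *S100A4*-/- and at 2835 and 2725 in WT. Both *S100A4*-/- libraries were under both WT libraries, at 91.5% of the WT mean, with a log2 difference of -0.13 (SE 0.06). Its value and that of *Dynlt1b* come from transcripts of different length, so the level of each was also divided by the number of read starts found in that gene alone. On this scale, which by the match above sets the 5′ end of *Dynlt1b* against the whole transcript of *Dynlt3*, *Dynlt1b* stood above *Dynlt3* in WT, with ratios of 1.36 and 1.47, and below it in *S100A4*-/-, with ratios of 0.357 and 0.317. Per kb of all annotated exons the order in WT was the opposite, with means of 289.9 for *Dynlt1b* and 1079 for *Dynlt3*, and in *S100A4*-/- they were at 63.4 and 987.

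The LC8 light chains stood far apart in level, *Dynll2* above *Dynll1* in every library. *Dynll1* (chr5:115297110-115300999) was at 2167 and 2266 in *S100A4*-/- and at 2382 and 2126 in WT. Its groups overlapped, with a log2 difference of -0.02 (SE 0.06). *Dynll2* (chr11:87979525-87987533) had the highest normalized value of the 8, at 35457 and 34455 in *S100A4*-/- and 39703 and 38498 in WT. Its groups did not overlap, the *S100A4*-/- mean was 89.4% of WT, and the log2 difference was -0.16 (SE 0.04). Per read start of its own, *Dynll2* was at 14.6, 14.2, 16.4 and 15.9 in *S100A4*-/- 1, *S100A4*-/- 2, WT 1 and WT 2, and *Dynll1* was at 1.13, 1.19, 1.25 and 1.11.

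*Dynlrb1*, the roadblock light chain (chr2:155236533-155250277), was at 2942 and 2952 in *S100A4*-/- and at 3054 and 3354 in WT. The groups did not overlap, although the WT libraries differed from each other by more than the nearest libraries of the 2 groups did, and the log2 difference was -0.12 (SE 0.06). Its relative *Dynlrb2* had no row in the table and was not analysed here.

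The heavy chain gene *Dync1h1* (chr12:110601452-110666945) was at 10078 and 9975 in *S100A4*-/- and at 9738 and 9842 in WT. It was the only one of the 8 with both *S100A4*-/- libraries above both WT libraries, and its log2 difference was 0.03 (SE 0.04). The intermediate chain gene *Dync1i2* (chr2:71211706-71263303) was at 1957 and 1924 in *S100A4*-/- and at 2129 and 2206 in WT. Both *S100A4*-/- libraries were under both WT libraries, at 89.5% of the WT mean, with a log2 difference of -0.16 (SE 0.06).

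**Figure D3:**
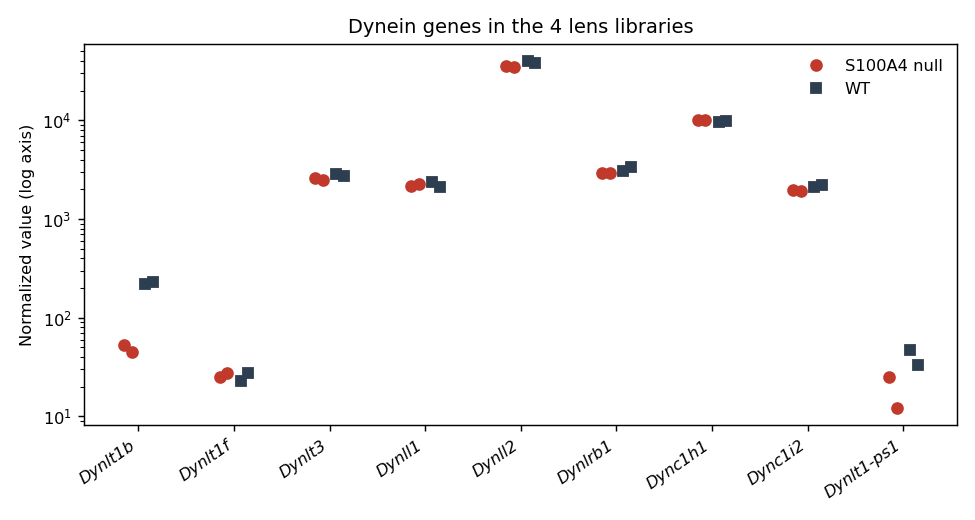
Normalized value (log axis) of each dynein gene and of *Dynlt1-ps1* in the 4 libraries; red circles are *S100A4*-/- and dark squares are WT, with 1 point per library and no averaging. *Dynlt1b* is the gene whose groups stand far apart (44.6 to 53.1 against 219 to 228), and the genes outside the *Dynlt1* copies have points that lie close together on this axis.

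Over the 6 genes outside the *Dynlt1* copies, the log2 differences ran from -0.16 to 0.03 with a median of -0.12, and 5 were below 0, whereas over all genes tested the median was -0.005 and 51.2% were below 0. Their libraries of 1 genotype were close, with an SD of at most 8.0% of the mean in WT and 3.9% in *S100A4*-/-. Among the 8 genes, both *S100A4*-/- values were under both WT values in 5, above both in 1, and overlapping in 2. Of all genes tested, 23.2% had both *S100A4*-/- values under both WT values and 23.7% had both above. With the adjusted p alone and no fold threshold, 2 of the 8 genes were called lower, *Dynlt1b* and *Dynll2*, against 1.33% of all genes tested, and the call of *Dynll2* was lost with equal totals, without the trend, and without WT replicate 1 or WT replicate 2. These counts come from the contrast on which the genes were chosen and are not read as support.

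Per read start of its own, the order of levels in WT was *Dynll2*, *Dynlrb1* (4.13 and 4.54), *Dynlt1b* (1.81 and 1.88), *Dynlt3* (1.33 and 1.28), *Dynll1* (1.25 and 1.11), *Dync1i2* (0.825 and 0.854), *Dync1h1* (0.699 and 0.706) and *Dynlt1f* (0.459 and 0.547). No pair of neighbours in that order overlapped in WT. In *S100A4*-/- the order was *Dynll2*, *Dynlrb1* (3.98 and 3.99), *Dynlt3* (1.23 and 1.16), *Dynll1* (1.13 and 1.19), *Dync1i2* (0.758 and 0.745), *Dync1h1* (0.723 and 0.716), *Dynlt1f* (0.497 and 0.547) and *Dynlt1b* (0.439 and 0.369). There *Dynlt3* and *Dynll1* overlapped. On this scale *Dynlt1b* stood at the third place of 8 in WT and at the last in *S100A4*-/-, and by their means the other 7 genes kept their order. Each value divides the count of the whole gene by the starts of 1 transcript, so the place of *Dynlt1f* against *Dynlt1b* in *S100A4*-/- is uncertain. Places depend on the scale. Per kb of all annotated exons, *Dync1h1* (625) stood above *Dynll1* (579) and *Dync1i2* (262) in WT. This scale counts the shared parts of the *Dynlt1* copies as if they could be read. On it *Dynlt1b* was at place 6 of 8 in WT and 7 in *S100A4*-/-, above *Dynlt1f* (6.94 in WT and 7.20 in *S100A4*-/-). Coverage along transcripts was not analysed here.

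Other motor genes were taken from lists drawn up by role: 65 genes, of which 58 belong to dynein, dynactin, their regulators and adaptors, with *Dynlt1-ps1* among them, and 7 to kinesin-1, the plus-end-directed motor. Of the 65, 54 had a row and were tested, 47 of them outside kinesin-1. *Bicdl1*, an adaptor of the BICD family that links dynein and dynactin to vesicles, was the 1 gene called higher at 2-fold (1.85% of the 54, against 3.65% of all genes). It was at 343 and 358 in *S100A4*-/- and at 131 and 130.3 in WT, with a log2 difference of 1.42 (SE 0.14, limma, adjusted p = 4.71e-10), and it was called in all 15 alternatives. No gene of the 54 was called lower at 2-fold and an adjusted p of at most 0.05 with limma, DESeq2 or edgeR. *Dynlt1-ps1* was past 2-fold but did not pass the adjusted p, as given above. At an unadjusted p under 0.05 with limma, 5 of the 54 were lower and 4 higher, against 6.71% lower and 11.0% higher of all genes. The median log2 difference was -0.015 over the 54 and -0.016 over the 47.

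With the adjusted p alone, 3 of the 54 were higher (5.56%, against 5.62% of all genes) and 2 were lower (3.7%, against 1.33%). Of the 47 outside kinesin-1, 2 were higher (4.26%) and 1 lower (2.13%). Besides *Bicdl1*, the higher genes were *Hook2* and *Klc3*. *Hook2*, a dynein adaptor of the Hook family, was at 127 and 121 in *S100A4*-/- and 81.4 and 74.5 in WT, a log2 difference of 0.66 (limma, adjusted p = 0.0391). *Klc3*, a kinesin-1 light chain, was at 91.6 and 114 in *S100A4*-/- and 60.6 and 58.0 in WT, a log2 difference of 0.77 (limma, adjusted p = 0.0309). The lower genes were *Dync1i1* and *Kif5a*. *Dync1i1*, the other intermediate chain, which is best known from neurons, was at 3769 and 3902 in *S100A4*-/- and 4438 and 4169 in WT, a log2 difference of -0.17 (limma, adjusted p = 0.0447). *Kif5a*, a kinesin-1 heavy chain also known from neurons, was at 141 and 173 in *S100A4*-/- and 196 and 301 in WT, a log2 difference of -0.63 (limma, adjusted p = 0.0107). With DESeq2, *Bicdl1* passed (adjusted p = 1.73e-11), while *Hook2* (0.26), *Klc3* (0.215), *Dync1i1* (0.124) and *Kif5a* (0.0963) did not. The calls of these 4 genes were also lost in limma without the trend, and without either *S100A4*-/- library or WT replicate 2. That of *Dync1i1* was lost as well without WT replicate 1 and with edgeR (adjusted p = 0.0502).

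By role, the 12 subunits of dynactin, the complex that dynein needs for long-distance transport, lay between -0.19 and 0.00 with a median log2 difference of -0.06, and 0 passed with or without the fold threshold in limma, DESeq2 or edgeR, with 1 lower and 0 higher at an unadjusted p under 0.05 (limma). Against the shares of all genes given above, a count of 0 in 12 is not a result about dynactin. *Actr1a*, the actin-related protein that forms the dynactin filament, was the most abundant of them, at 5797 and 6369.8 in *S100A4*-/- and 6217 and 6632 in WT. *Dctn1*, the large subunit that binds microtubules and the intermediate chain, was at 3893 and 4339.8 against 4195 and 4212. The groups of both genes overlapped. The 7 regulators, which include the LIS1 gene *Pafah1b1* (3818 and 3624 in *S100A4*-/-, 4076 and 3684 in WT) and *Ndel1* (3876 and 4047 in *S100A4*-/-, 3926 and 3697 in WT), had a median of -0.06 and a range of -0.29 to 0.06.

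The light intermediate chains, which tie dynein 1 to its adaptors, overlapped between genotypes: *Dync1li1* was at 1935 and 1912 in *S100A4*-/- and 1944 and 1847 in WT, and *Dync1li2* at 3164 and 2947 against 2885 and 2992. The 5 subunits of dynein 2, the motor of transport within cilia, had a median of -0.04. Its heavy chain gene *Dync2h1* was at 1139.8 and 1177 in *S100A4*-/- and 1174 and 1200 in WT. The 12 adaptors tested had a median of 0.05, and among them *Trak1*, a mitochondrial adaptor, was the most abundant, at 3417 and 3488 in *S100A4*-/- and 3340.2 and 3667 in WT. The 7 axonemal dynein genes tested had a median of 0.05 and the 7 kinesin-1 genes one of -0.01. Of these, *Klc1* was at 5479.8 and 5599 in *S100A4*-/- and 5553 and 5731 in WT.

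**Figure D4:**
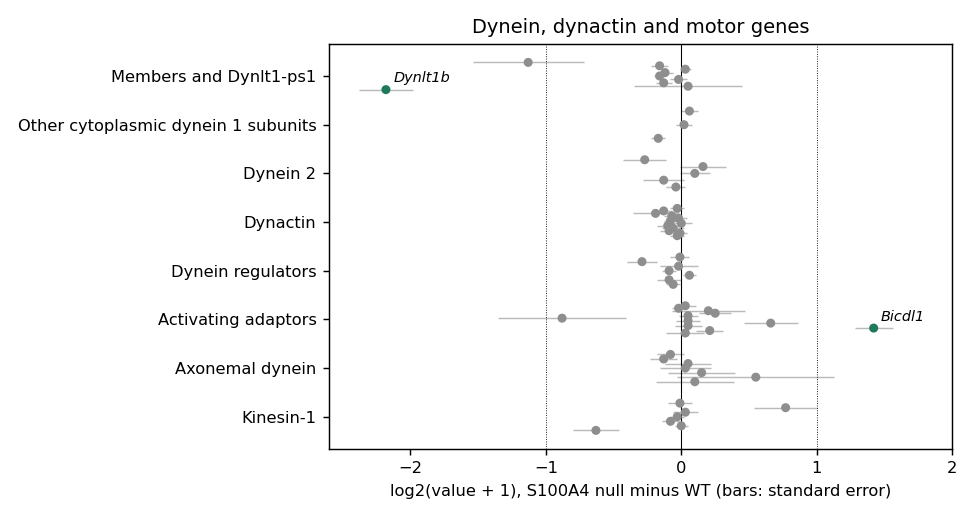
log2 difference (*S100A4*-/- minus WT, on log2(value + 1)) of the dynein genes with *Dynlt1-ps1* (top line) and of the listed genes by role; each point is 1 gene, grey bars are the standard error from the limma fit over 4 libraries, dotted lines mark 2-fold, and green marks genes past both thresholds. *Dynlt1b* at -2.18 and *Bicdl1* at 1.42 are the green points, and the dynactin subunits lie between -0.19 and 0.00.

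Of the rows around *Dynlt1b* on chromosome 17, the 1 called at 2-fold was placed by its name, the pseudogene *Tmem181b-ps* next to it. Genes were placed by identifier, and the start of a gene was taken as its lower coordinate on either strand. Within 1 Mb of the *Dynlt1b* start 13 such genes were tested, with *Dynlt1f*, described above, left out of the count. Of these 13, 0 were called higher and 0 lower at 2-fold with limma, DESeq2 or edgeR. With limma at an unadjusted p under 0.05, 0 were higher and 1 lower, and the median log2 difference was 0.02. Over all genes the shares called with limma were 3.65% higher and 0.0744% lower at 2-fold. At an unadjusted p under 0.05 they were 11.0% and 6.71%, so that counts this small among 13 genes are near the background. With the adjusted p alone 1 was lower: *Zdhhc14*, a palmitoyltransferase gene at -938 kb from the *Dynlt1b* start, was at 440.2 and 443 in *S100A4*-/- and at 542 and 567 in WT, a log2 difference of -0.33 (SE 0.10, limma, adjusted p = 0.0275, but 0.194 with DESeq2). *Tmem181a*, the nearest of the 13 to *Dynlt1b*, at -173 kb, was at 96.8 and 104 in *S100A4*-/- and at 108 and 135 in WT, a log2 difference of -0.26 (SE 0.20, limma, adjusted p = 0.542). Over chromosome 17, 716 genes placed by identifier were tested. Of these, 1 was called lower at 2-fold, *Dynlt1b* itself, and 21 were called higher, against 0.0744% and 3.65% of all genes.

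The *Tmem181b-ps* row carries an identifier that GENCODE M21 does not hold. However, M21 has a gene of that name under another identifier on the minus strand of chr17:6438524-6467022. The nearer end of that gene, its 3′ end, lies 2227 bases after the end of *Dynlt1b*. If the row is placed there, 14 neighbours other than *Dynlt1f* were tested and 1 was lower, and 717 genes of chromosome 17 were tested and 2 were lower; another 141 rows have no position. *Tmem181b-ps* was at 16.3 and 12.2 in *S100A4*-/- and at 48.0 and 32.8 in WT, from 19, 12, 46 and 30 reads, a log2 difference of -1.43 (SE 0.42, limma, adjusted p = 0.0264). It passed in 9 of 14 alternatives, and not with DESeq2 (adjusted p = 0.14), without the trend, or without WT replicate 1 or either *S100A4*-/- library. That it was lower was known when it was looked up. In GENCODE M21, transcript Dynlt1a-201 shares 272 of its 50-base starts with *Tmem181a* and 128 with *Tmem181b-ps*.

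**Figure D5:**
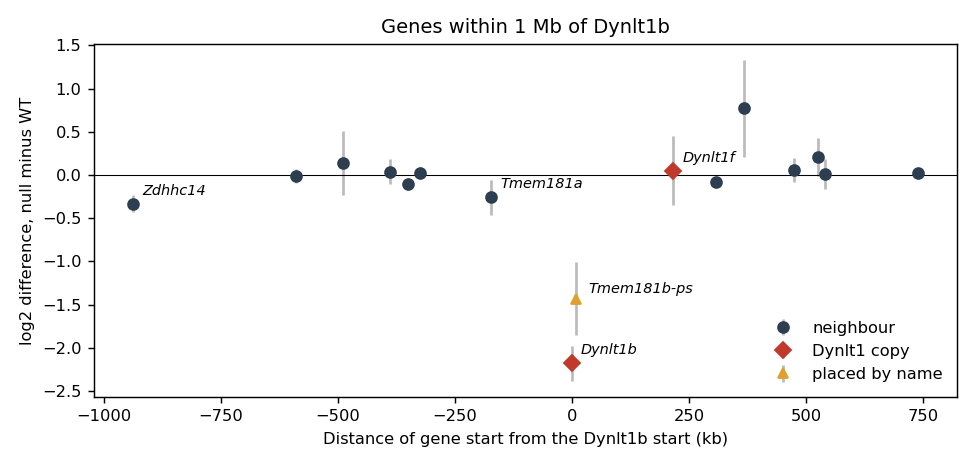
log2 difference (*S100A4*-/- minus WT) of the tested genes within 1 Mb of *Dynlt1b* against the distance of their start from the *Dynlt1b* start in kb. The start is the lower coordinate on either strand. Dark circles are neighbours, the yellow triangle is *Tmem181b-ps*, placed by its name, red diamonds are *Dynlt1b* and *Dynlt1f*, and bars are standard errors from the limma fit. *Dynlt1b* lies at -2.18 and *Tmem181b-ps* beside it at -1.43, while *Dynlt1f* is at 0.05 and *Zdhhc14* at -0.33.

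Over the 4 libraries, the gene whose pattern lay nearest to that of *Dynlt1b* was *Rab4a*, which encodes a small GTPase of endosome recycling. Likeness was the Euclidean distance between log2(value + 1) profiles, each centred on its own mean, among 11339 genes whose mean value reached 50. *Rab4a* was at a distance of 0.23, with values of 40.2 and 38.5 in *S100A4*-/- and 204 and 176 in WT. The next were *Pttg1*, which encodes securin, at 1.08, *9630028B13Rik* at 1.15, the cholecystokinin gene *Cck* at 1.19, and *Pole*, the catalytic subunit of DNA polymerase epsilon, at 1.24. These distances rest on 4 libraries in 2 groups, so that they rank genes mainly by how close their difference between the groups was to that of *Dynlt1b*.

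Markers of cells outside the lens moved between the groups as well, in the opposite direction to *Dynlt1b*. With limma at 2-fold and an adjusted p of at most 0.05, 3.65% of all genes tested were called higher. All 9 rod photoreceptor markers were higher in *S100A4*-/- by this rule, with a median log2 difference of 2.05. Their summed normalized values were 7219.9 and 6956 in *S100A4*-/- and 1699.9 and 1726 in WT, none was at 0 in any library, and the most abundant was *Gnat1*, rod transducin. All 3 Müller glia markers were higher, with sums of 5957 and 5862 against 1944 and 2121, most of it *Glul*. All 4 ciliary body and pigment cell markers were higher, with sums of 1142 and 1168 against 170.2 and 249, the most abundant in *S100A4*-/- being *Dct*. Of the macrophage markers 2 of 4 were higher, with sums of 178 and 144 against 58.5 and 56.9, the most abundant being *Csf1r*, and of the red cell markers 1 of 3, with sums of 223 and 217 against 129 and 77.7, the most abundant being *Hbb-bs*. Whether these transcripts came from lens cells or from other cells in the pools was not tested here. The part of any such cells in the differences of *Dynlt1b*, *Bicdl1* and the other dynein genes was not tested.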

How the data were processed

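Lens RNA from 2 *S100A4*-/- and 2 WT pools was sequenced by the authors on 1 lane as stranded libraries. The authors trimmed reads with Trim Galore, aligned them with STAR to GRCm38 (release 73), counted single-locus reads per gene with HTSeq and kept genes with at least 10 reads in a library. The deposited signal values are these counts divided by DESeq2 size factors, and 100% of values in each library came out as whole reads (tolerance 0.05). No value column lacked a sample (0).

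Row identifiers were matched to GENCODE M21, and 14782 of 14924 matched; the name of the *Tmem181b-ps* row came from the study's supplementary expression table. The release differs from that of the authors. The 14780 genes that reached a value of 10 in any library were tested with limma 3.58.1 (R 4.3.3, eBayes with trend) on log2(value + 1), with Benjamini-Hochberg adjustment over all of them, and called at 2-fold and adjusted p of at most 0.05. On the recovered reads, DESeq2 1.42.0 called 421 higher and 6 lower and edgeR 4.0.16 (quasi-likelihood) 555 and 11. Two-sided p-values set the difference between the groups against the spread between 2 pools a group. In limma that spread was drawn toward a trend over all genes tested. Value per read start is the normalized value divided by the number of single-gene 50-base starts of 1 transcript. Coding sequences were compared with Biopython 1.88. No genome was used here.

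The members and lists were chosen with earlier results of these data known. Named genes were *S100a4*, every member, every called gene of the motor gene lists, and the 5 genes nearest in pattern. The called or *Dynlt1* and *Tmem181* genes near *Dynlt1b* were also named. Other genes of a list were picked for their abundance or their role, so they do not stand for the whole list. Alternatives were count tests, other scalings, pseudocounts and filters, no trend, a replicate term, no fold threshold, other read lengths and leaving out each library.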

Additional observations from a re-analysis of the deposited data

How the results depend on the processing

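The log2 difference of *Dynlt1b* lay between -2.32 and -2.05 over 15 alternatives and was called lower in each, and leaving out each library gave -2.30 to -2.05. The log2 ratio of the summed 3 *Dynlt1* rows was -1.81 with quantile normalization and -1.78 to -1.49 with each library left out (-1.78 without *S100A4*-/- replicate 1). *Dynll2* lost its call on the adjusted p alone with equal totals, without the trend, and without WT replicate 1 or WT replicate 2. *Dynlt1f* was below 0 in 3 of 14 alternatives (-0.23 to 0.18), *Dynll1* in 11 of 15 (-0.10 to 0.06), and *Dynlt1-ps1* in all 14 (-1.61 to -0.64). *Dynlrb1* was below 0 in all 15, at -0.19 without WT replicate 1 and -0.05 without WT replicate 2. The minimum mean value of 50 gave no value for *Dynlt1f* and *Dynlt1-ps1*.

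Counts of all genes called moved more. Genes called lower numbered 6 with DESeq2, 7 without the trend, 6 with a mean value of at least 50, 23 with quantile normalization and 197 on the adjusted p alone, and genes called higher numbered 174 without the trend, 281 with a mean value of at least 50 and 831 on the adjusted p alone. With each library left out, 275 to 535 were higher and 6 to 13 lower (275 and 6 without *S100A4*-/- replicate 1, 304 higher without *S100A4*-/- replicate 2); these fits have 3 libraries, and the lone library is assumed to vary like the other group. On the adjusted p alone the motor gene lists gave 3 higher and 2 lower and the neighbours 1 lower. With the fold threshold and each library left out, the lists gave 1 higher and 0 lower and the neighbours 0 and 0. With *Tmem181b-ps* placed by its name, a choice made after seeing the data, 1 neighbour was lower. On the adjusted p alone, *Hook2* passed in 8 of 15 alternatives, *Klc3* in 9, *Dync1i1* in 5, *Kif5a* in 10 and *Zdhhc14* in 8. The cause of these moves was not tested.

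With the replicate block, 576 genes were higher and 15 lower, and *Dynlt1b* was at -2.18. Same-numbered libraries share only a number (correlation of deviations 0.056 over 11340 genes, 2 pairs). With reads of 36 or 75 bases, 14.5% or 17.4% of *Dynlt1b* starts and 4.9% or 10.8% of *Dynlt1f* starts were their own. A count of 3 reads is worth 2.57 to 3.28. *Dynlt1f* rests on 22 to 29 reads in a library and *Dynlt1-ps1* on 12 to 45, which limits what can be said of them. *Dynlt1b* rests on 524 reads in all.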
